A study of Mus musculus with 14 samples.

Results

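The enzymes that make serine and move its carbon into the folate cycle were described across RNA, m6A, Igf2bp3-RIP and Lin28a-RIP in muscle stem cells (MuSCs). The 9 members were Phgdh, Psat1, Psph, Shmt1, Shmt2, Mthfd1, Mthfd1l, Mthfd2 and Tyms, of 14837 genes in the input table. They were taken by gene symbol through the Ensembl gene identifiers of the input and the Entrez gene identifiers of the RIP tables. The Lin28a+ cells were MuSCs that carried the tdTomato label of a Lin28a-CreERT2; LSL-tdTomato mouse line, so the group holds whatever cells that driver marked, and they are set beside control MuSCs. Both were cultured from skeletal muscle on 1% Matrigel in DMEM with 10% FBS, and the sources used here name no further treatment. The ages and the number of animals behind a library were not given in the sources used here. The series holds 14 libraries. Each group has 2 input, 2 m6A-RIP and 2 Igf2bp3-RIP libraries, and Lin28a+ MuSCs also have 2 Lin28a-RIP libraries, for which there is no control group. All members were measured in the input. 6 had at least 1 row in the m6A-RIP table, 5 had an Igf2bp3-RIP peak and 5 had a Lin28a-RIP peak.

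Serine is made from a glycolytic intermediate, 3-phosphoglycerate, by Phgdh, Psat1 and Psph in turn. Serine hydroxymethyltransferases then turn serine into glycine and pass the released carbon unit to tetrahydrofolate, and the Mthfd enzymes move that unit between the mitochondrion and the cytosol, where it serves thymidylate synthesis by Tyms, purine synthesis and the methionine cycle. The pathway is known for its high activity in dividing cells, several of its genes are textbook targets of the transcription factor Atf4, and Tyms is a textbook target of E2F. m6A is a methyl mark on adenosines of RNA, Igf2bp3 is an RNA-binding protein known as a reader of m6A, and Lin28a is an RNA-binding protein known for blocking the maturation of let-7 microRNAs. In a RIP, RNA held by an antibody against the mark or protein is sequenced.

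The values summed to between 4842915 and 6220960 in an input library, 21350962 and 31830638 in an m6A-RIP library, 9215355 and 34142094 in an Igf2bp3-RIP library, and 36610494 and 33908110 in the Lin28a-RIP libraries. Levels are given as CPM, the count scaled to a library sum of 1000000. Replicate 1 was the shallower Igf2bp3-RIP library in both groups, and the Igf2bp3-RIP replicates differed from each other by far more than sampling noise: the chi-square over its degrees of freedom was 34.1 for the control pair and 36.4 for the Lin28a+ pair, against 1.68 to 3.83 in the other assays. All 10 myogenic markers were listed in the input, and their summed level was 9338 to 9766 CPM in control and 11886 to 12054 CPM in Lin28a+ MuSCs. Markers of fibro-adipogenic progenitors summed to 4.46 to 5.44 CPM in control and 13.3 to 14.2 CPM in Lin28a+ MuSCs, with 4 of 7 listed and Dcn, Lum and Dpt absent from the table. The 4 macrophage markers listed of 5 summed to 1.95 to 2.63 CPM in control and 1.54 to 2.18 CPM in Lin28a+ MuSCs, the 1 endothelial marker listed of 5 lay at 0.392 to 0.501 and 0.435 to 0.442 CPM, and the 5 pericyte or smooth muscle markers listed of 6, which include contractile genes that cultured myogenic cells also use, at 5594 to 5692 and 7566 to 7576 CPM. The part of these cells in the results below was not tested. In bulk RNA, more cells with a transcript and more of it per cell cannot be told apart.

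RNA of most members was higher in Lin28a+ MuSCs. 8 of the 9 members rose (6 with DESeq2), from 1.28-fold for Mthfd2 to 2.17-fold for Psat1, and none fell, while 28.1% of all 11317 genes tested were called higher and 28.7% lower (edgeR quasi-likelihood test, Benjamini-Hochberg adjusted p under 0.05 over all genes). The median change of the members was 0.80 on the log2 scale, against 0.009 for all genes tested. With 2 libraries a group, which nothing in the sources used here ties to separate animals, the p-values measure only the spread between these libraries. The SE given with a change is not held at counting error, as the p-values are, and can be smaller than it.

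All 3 enzymes of serine synthesis rose. Phgdh (ENSMUSG00000053398; RefSeq span chr3:98313171-98339969 of GRCm38.p6, minus strand), which oxidises 3-phosphoglycerate and commits it to serine, lay at 284 and 303 CPM in the control libraries and at 575 and 580 CPM in the Lin28a+ libraries. Its level was thus close to doubled with no overlap between the groups, and the change was 0.95 on the log2 scale (SE 0.029, adjusted p = 1.06e-05, edgeR). Psat1 (ENSMUSG00000024640; chr19:15905123-15925059, minus strand), the aminotransferase of the next step, lay at 105 and 111 CPM in control and at 236 and 245 CPM in Lin28a+ MuSCs. This was the largest change among the members, 1.12 on the log2 scale (SE 0.033, adjusted p = 9.81e-06, edgeR). Psph (ENSMUSG00000029446; chr5:129765558-129787443, minus strand), the phosphatase that releases serine, lay at 30.2 and 29.8 CPM in control and at 53.9 and 53.1 CPM in Lin28a+ MuSCs, a change of 0.80 (SE 0.047, adjusted p = 6.99e-05, edgeR). The Psph locus overlaps Cct6a, and the use of strand in counting was not given in the sources used here, so reads of the 2 genes may not be fully separated.

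The mitochondrial and the cytosolic serine hydroxymethyltransferase differed in their calls. Shmt2 (ENSMUSG00000025403; chr10:127517123-127522444, minus strand), the mitochondrial enzyme, lay at 82.9 and 90.4 CPM in control and at 179 and 180 CPM in Lin28a+ MuSCs, a change of 1.02 on the log2 scale (SE 0.038, adjusted p = 1.81e-05, edgeR). Its span overlaps Ndufa4l2. Shmt1 (ENSMUSG00000020534; chr11:60788897-60811265, minus strand), the cytosolic enzyme, lay at 7.87 and 7.88 CPM in control and at 8.69 and 10.3 CPM in Lin28a+ MuSCs. Both Lin28a+ values were above both control values, but these are only 43.01 to 50.11 estimated counts a library, and the change of 0.24 did not pass the test, whose p is held at or above that of counting error (adjusted p = 0.332, edgeR). Whether the changes of Shmt1 and Shmt2 differ was not tested.

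The 3 Mthfd genes rose by less than Psat1 and Shmt2. Mthfd1l (ENSMUSG00000040675; chr10:3972892-4167081, plus strand), the mitochondrial enzyme that releases formate, lay at 50.7 CPM in both control libraries and at 78.6 and 80.2 CPM in Lin28a+ MuSCs, a change of 0.62 on the log2 scale (SE 0.039, adjusted p = 8.55e-05, edgeR). Mthfd1 (ENSMUSG00000021048; chr12:76254406-76319820, plus strand), the cytosolic enzyme that takes up formate and returns it to folate, lay at 37.6 and 38.0 CPM in control and at 50.7 and 53.2 CPM in Lin28a+ MuSCs, a change of 0.42 (SE 0.047, adjusted p = 6.69e-04, edgeR). Mthfd2 (ENSMUSG00000005667; chr6:83305704-83326011, minus strand), the mitochondrial dehydrogenase and cyclohydrolase, lay at 62.5 and 63.2 CPM in control and at 81.4 and 82.3 CPM in Lin28a+ MuSCs. It changed by 0.35 (SE 0.036, adjusted p = 4.69e-04, edgeR). No library of these genes crossed into the range of the other group, but with DESeq2, which called 3039 genes against 6434 here, Mthfd1 and Mthfd2 did not pass (adjusted p = 0.103 and 0.0848). Mthfd1 and Mthfd1l overlap smaller RefSeq genes of their loci, which the counts may not separate.

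Tyms (ENSMUSG00000025747; chr5:30038546-30073645, minus strand), which uses the folate carbon unit to make thymidylate for DNA, lay at 15.2 and 14.8 CPM in control and at 29.0 and 28.7 CPM in Lin28a+ MuSCs. It rose by 0.91 on the log2 scale (SE 0.059, adjusted p = 9.81e-05, edgeR). The genes of the G1/S transition moved with it: 17 of 18 were higher (12 with DESeq2) and none lower. Their part in the change of Tyms was not tested.

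**Figure D1:**
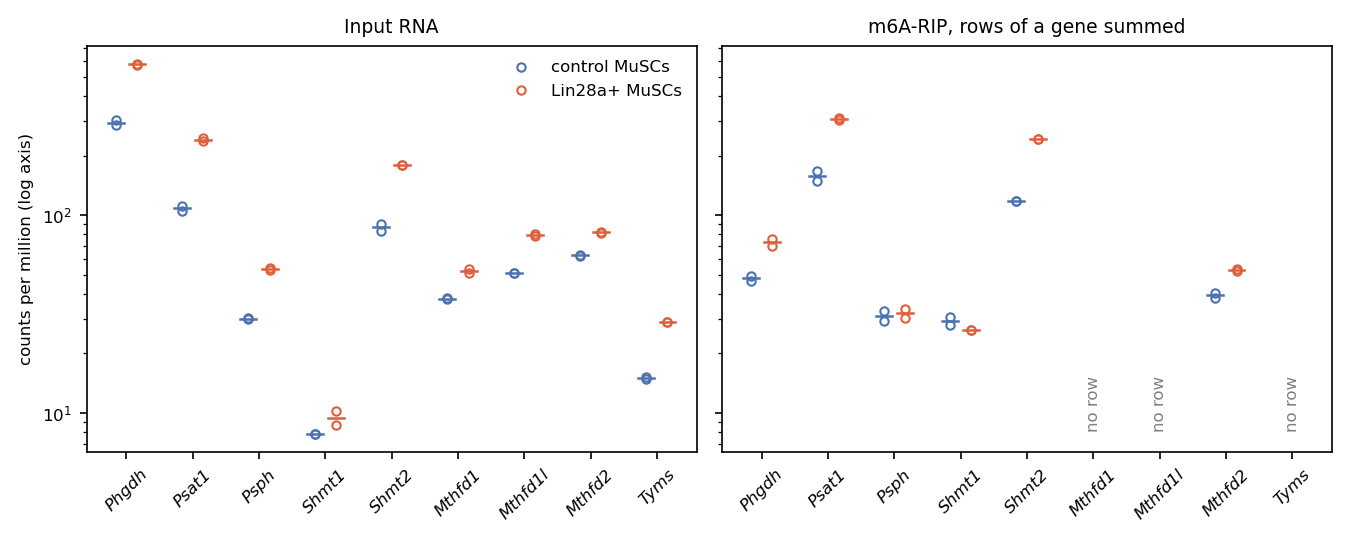
Levels of the 9 members in each input library (left) and each m6A-RIP library (right), in CPM on a log axis. Open circles are libraries and short bars the mean of the 2 libraries of a group. In the input the Lin28a+ values lie above the control values for every member, whereas in m6A-RIP those of Psph overlap and those of Shmt1 lie lower, and 3 members have no row.

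Since 8 of the 9 members rose, the sequence before their start sites was searched, on both strands of the RefSeq promoter windows (250 bases before to 50 after the start, GRCm38.p6), for the C/EBP-ATF response element TGATGNAA, the E-box CACGTG and the E2F motifs TTTCCCGC and TTTGGCGC. All 9 members matched, with 10 windows, since Psat1 has 2. The windows of Tyms, Psph, Mthfd1, Mthfd1l and Mthfd2, and 1 of those of Psat1, are set on starts that lie inside the gene span given above, so the bases shown for Tyms overlap the end of its span. The C/EBP-ATF element was in none of the 10, against 3.97% of all 32851 windows, and the E2F motifs were in none, against 1.56%. The E-box was in 1 window, that of Tyms, 61 bases before the start, against 7.15% of all windows. The motif is its own reverse complement and was counted once. The upstream 250 bases are shown for 2 members, Psat1 with the largest change and Tyms with the only motif, 5′ to 3′ on the strand of the gene, with the E-box in capitals.
Psat1 (chr19:15925060-15925309, minus strand): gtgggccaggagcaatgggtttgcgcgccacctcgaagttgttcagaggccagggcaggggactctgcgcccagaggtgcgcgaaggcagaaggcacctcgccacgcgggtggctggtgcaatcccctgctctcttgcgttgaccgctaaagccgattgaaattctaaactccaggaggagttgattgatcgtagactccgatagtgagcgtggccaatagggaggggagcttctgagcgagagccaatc
Tyms (chr5:30073626-30073875, minus strand): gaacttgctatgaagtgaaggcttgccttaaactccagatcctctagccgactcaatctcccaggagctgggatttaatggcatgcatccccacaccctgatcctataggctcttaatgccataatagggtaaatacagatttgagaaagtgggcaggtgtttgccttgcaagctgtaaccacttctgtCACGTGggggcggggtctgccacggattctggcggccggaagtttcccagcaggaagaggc
Psat1 is richer in G and C (59.6%) than Tyms (52%) over these bases. That the searched letters are absent from a window says nothing about a factor's binding elsewhere.

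The genes around the pathway did not all rise. Of 35 other serine, glycine and folate genes, 25 were tested in the input, of which 8 were higher, 4 lower and 13 not called. Their median change was 0.03 on the log2 scale. Over all genes tested, 28.1% were called higher and 28.7% lower, the shares to set beside this list and those that follow. DESeq2 called 4 higher and 2 lower, 5 were higher without control input replicate 2 or Lin28a+ library b, and 2 were lower without control input replicate 2 or either Lin28a+ library. The higher ones included the neutral amino acid transporter Slc1a5 (1.23, SE 0.079) and the mitochondrial formyltetrahydrofolate dehydrogenase Aldh1l2 (0.72, SE 0.084). The lower ones included Gldc, the glycine decarboxylase of the glycine cleavage system. It lay at 4.52 and 5.14 CPM in control and at 0.746 and 0.697 CPM in Lin28a+ MuSCs and changed by -2.77 (SE 0.22). These levels are below those of Shmt1 and rest on few estimated counts, so counting error may be larger than this SE. Dld, a subunit shared by that system and other dehydrogenases, changed by -0.38 (SE 0.039), and Sdsl, a serine dehydratase homolog, by -1.08 (SE 0.24). Sdsl also had few counts, at 2.81 and 3.48 CPM in control and at 1.32 and 1.58 CPM in Lin28a+ MuSCs. The enzymes of serine synthesis and the decarboxylase that breaks down glycine thus changed in opposite directions, the latter at few counts.

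The methionine cycle and transsulfuration genes were split, with 6 higher and 6 lower of 15 tested and a median of -0.15. All genes tested were split too, with 28.1% higher and 28.7% lower. DESeq2 called 2 higher and 3 lower, and 3 were lower without control input replicate 2 or Lin28a+ library a. Ahcy, which hydrolyses S-adenosylhomocysteine, changed by 0.51 (SE 0.026) and the spermidine synthase Srm by 0.30 (SE 0.033). Cth, which cleaves cystathionine to cysteine, was at 2.47 and 1.49 CPM in control and at 8.65 and 10.6 CPM in Lin28a+ MuSCs, a change of 2.26 (SE 0.25). Its control values rest on few estimated counts, so counting error may be larger than this SE. Both subunits of the first enzyme of glutathione synthesis were lower, Gclc by -0.83 (SE 0.066) and Gclm by -1.31 (SE 0.12), as was Ahcyl1 by -0.35 (SE 0.033).

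Nucleotide genes, which take up the carbon units, were mostly higher. Of 19 thymidylate and deoxynucleotide genes tested, 11 were higher (9 with DESeq2) and 3 lower (1 with DESeq2), with a median of 0.38. The dUTPase Dut changed by 1.43 (SE 0.044), Umps, which makes UMP, by 0.73 (SE 0.032) and Rrm1, the large subunit of ribonucleotide reductase, by 0.57 (SE 0.027). Its small subunits were lower, Rrm2 by -0.27 (SE 0.022) and the p53-inducible Rrm2b by -1.17 (SE 0.16), as was the UMP/CMP kinase Cmpk1 by -0.53 (SE 0.060). Rrm2b had few counts, at 4.58 and 4.85 CPM in control and at 1.94 and 2.25 CPM in Lin28a+ MuSCs. All 17 purine synthesis genes were tested, and 13 were higher and 1 lower, with a median of 0.40. Impdh1 (0.89, SE 0.053) and Gmps (0.46, SE 0.032), both of GMP synthesis, and Prps1 (0.52, SE 0.045), which makes the ribose donor PRPP, had the smallest p-values among those higher. The lower gene was Adssl1, the adenylosuccinate synthase known from muscle, by -1.17 (SE 0.049). With DESeq2 5 purine genes were called higher in place of 13.

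Of 26 genes that hold Atf4 and its textbook targets outside the members, 14 were higher (12 with DESeq2) and 3 lower (1 with DESeq2), with a median of 0.26. Asparagine synthetase Asns lay at 89.2 and 92.6 CPM in control and at 181 and 192 CPM in Lin28a+ MuSCs, a change of 1.00 (SE 0.041). Atf5 changed by 0.67 (SE 0.026) and the translation repressor Eif4ebp1 by 0.64 (SE 0.034). The cationic amino acid transporter Slc7a1 (-0.50, SE 0.062), the cystine transporter Slc7a11 (-0.99, SE 0.14) and the stress gene Sesn2 (-0.12, SE 0.037) were lower, and Atf4 itself changed by 0.14 (SE 0.024, adjusted p = 0.00393, edgeR). Slc7a11 had few counts, at 7.43 and 8.17 CPM in control and at 3.49 and 4.61 CPM in Lin28a+ MuSCs. Among the 18 G1/S genes the median was 0.95, with Mcm6 (0.99, SE 0.030), Mcm2 (1.23, SE 0.038) and Mcm5 (1.27, SE 0.048), all of the replicative helicase, ahead by p-value. Apart from Atf4, the genes named here from these lists were named only where the groups did not overlap.

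**Figure D2:**
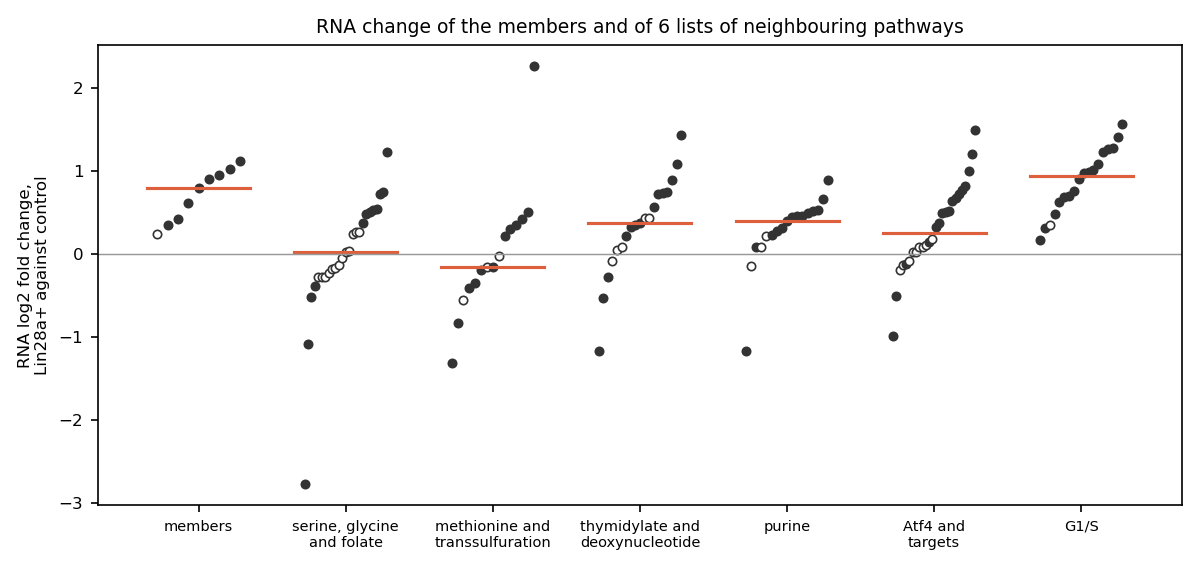
RNA change of the members and of the 6 lists, as log2 fold change of Lin28a+ against control MuSCs. Each point is a gene, filled where it was called at an adjusted p under 0.05, and the bar is the list's median, which is 0.80 for the members, 0.03 for serine, glycine and folate genes and 0.95 for G1/S genes.

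The m6A-RIP signal rose for Shmt2, Psat1, Phgdh and Mthfd2 and did not pass the test for Psph and Shmt1. In the rows of a gene summed, 4 of the 6 members with a row were higher and none lower, against 32.5% of 9416 genes called higher and 33.8% lower. Mthfd1, Mthfd1l and Tyms have no row, so nothing can be said of their m6A here. Scaling to total counts in place of TMM moved the split over all genes from 3060 higher and 3179 lower to 2395 and 3766 and the median change to -0.09, and left the 4 calls in place.

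Shmt2 lay at 118 CPM in both control m6A-RIP libraries and at 243 and 242 CPM in the Lin28a+ libraries, a change of 1.14 (SE 0.040, adjusted p = 1.76e-10, edgeR). Psat1 lay at 149 and 167 CPM in control and at 301 and 309 CPM in Lin28a+ MuSCs, a change of 1.05 (SE 0.053, adjusted p = 4.61e-09, edgeR). Both were close to doubled, as their RNA was. Phgdh lay at 46.3 and 49.4 CPM against 70.2 and 76.1 CPM, a change of 0.72 (SE 0.066), and Mthfd2 at 38.3 and 40.6 CPM against 52.4 and 53.4 CPM, a change of 0.53 (SE 0.067). Psph lay at 32.8 and 29.2 CPM in control and at 30.2 and 33.7 CPM in Lin28a+ MuSCs, so that the groups overlapped (0.14, SE 0.088, adjusted p = 0.180, edgeR). Shmt1 lay at 27.9 and 30.6 CPM in control and at 26.3 and 26.4 CPM in Lin28a+ MuSCs (-0.05, SE 0.082, adjusted p = 0.635, edgeR).

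The table holds 9 rows for these 6 genes, each assigned to a transcript but without a position. 6 rows were higher and none lower, against 30.0% of 18881 rows called higher and 31.8% lower. The 2 Psat1 rows were unequal. The row of ENSMUST00000161707 held 140 and 158 CPM in control against 290 and 299 CPM in Lin28a+ MuSCs and changed by 1.14 (SE 0.057), whereas that of ENSMUST00000162416 held 8.23 and 8.81 CPM against 10.5 and 10.2 CPM and changed by 0.44 (SE 0.14, adjusted p = 0.0158, edgeR). The second call was lost with total counts (adjusted p = 0.101) and without control replicate 1 (0.0897), Lin28a+ library a (0.0647) or Lin28a+ library b (0.0534). The 2 Phgdh rows changed alike, by 0.72 (SE 0.085) and 0.83 (SE 0.091), and the 2 Shmt1 rows, both assigned to ENSMUST00000135081, by -0.29 (SE 0.14) and 0.17 (SE 0.12) without passing the test. The Psph row changed by 0.19 (SE 0.089, adjusted p = 0.074, edgeR) and was called higher without control replicate 1 (0.29, adjusted p = 0.0198) or Lin28a+ library a (0.27, adjusted p = 0.0368). With total counts the first Shmt1 row was called lower (-0.45, adjusted p = 0.014), which made 5 member rows higher and 1 lower, while the calls over all rows moved from 5665 higher and 6005 lower to 3842 and 7638.

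Set against the input in 1 model, the m6A-RIP of 5 of the 6 members did not pass the test for a change other than that of their RNA. Of the 6 members, 1 was called lower and none higher, against 3.13% of 7950 genes called higher and 3.99% lower. Psph was that gene: its RNA rose by 0.80 and its m6A-RIP changed by 0.14 without passing the test, and m6A-RIP relative to input fell by 0.67 on the log2 scale (SE 0.13, adjusted p = 0.00756, edgeR). Over 11 alternatives the Psph value ranged from -0.80 to -0.58 and the adjusted p from 0.0017 to 0.0549, the last without control input replicate 2. Phgdh (-0.24, SE 0.066, adjusted p = 0.0648), Shmt1 (-0.30, SE 0.17, adjusted p = 0.621), Psat1 (-0.08, SE 0.079, adjusted p = 0.798), Shmt2 (0.12, SE 0.054, adjusted p = 0.325) and Mthfd2 (0.17, SE 0.073, adjusted p = 0.276) did not pass. Phgdh was also called lower without Lin28a+ m6A-RIP library b (-0.30, adjusted p = 0.0183) and with total counts (-0.36, adjusted p = 0.00703). With total counts the median of all genes moved from -0.021 to -0.14, and the calls over all genes moved from 249 higher and 317 lower to 205 and 847.

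Among the genes of the 6 lists, the m6A-RIP relative to input was higher on the log2 scale for Gclm (0.94, SE 0.12), Slc7a11 (1.4, SE 0.20) and Gcat, which makes glycine from a threonine breakdown product (0.87, SE 0.18). It was lower for Rfc4, a subunit of the clamp loader (-2.49, SE 0.11), Dut (-2.35, SE 0.13) and the folylpolyglutamate synthase Fpgs (-1.19, SE 0.14). For Dut this means 15.8 and 13.0 CPM in the control m6A-RIP and 7.16 and 7.19 CPM in the Lin28a+ m6A-RIP, while its RNA rose. Per list, 1 of 14 serine, glycine and folate genes was higher and 1 lower, 2 and 1 of 10 methionine genes, 1 and 1 of 15 thymidylate genes, 0 and 3 of 12 purine genes, 1 and 0 of 18 Atf4 genes, and 0 and 2 of 11 G1/S genes. These few calls depended on the scaling: with total counts the lists in that order had 1 and 3, 1 and 4, 1 and 3, 0 and 5, 1 and 4, and 0 and 3. Without any 1 of the 4 input libraries, the methionine genes had 1 higher and 0 lower, no thymidylate gene was higher, and 1 purine and 1 G1/S gene were lower. No serine, glycine or folate gene was higher without control input replicate 2 or Lin28a+ input library a, and 2 were lower without Lin28a+ m6A-RIP library b. The methionine genes had 1 higher without control m6A-RIP replicate 2 or Lin28a+ m6A-RIP library a, 2 lower without the former and 0 lower without Lin28a+ m6A-RIP library b. Without control m6A-RIP replicate 2 or Lin28a+ m6A-RIP library a 1 G1/S gene was lower, and without the latter 1 purine gene was higher.

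In the m6A-RIP alone, per gene, 5 of 15 serine, glycine and folate genes were higher and 5 lower, 3 and 5 of 10 methionine genes, 8 and 2 of 15 thymidylate genes, 4 and 2 of 12 purine genes, 12 and 1 of 18 Atf4 genes, and 9 and 1 of 11 G1/S genes. Over all genes, 32.5% were called higher and 33.8% lower. The medians of the lists were -0.07, -0.18, 0.28, 0.08, 0.36 and 0.74 in that order, against 0.007 over all genes. With DESeq2, or without control m6A-RIP replicate 2 or Lin28a+ library a, 3 serine, glycine and folate genes were lower, and with total counts 2 Atf4 genes were.

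**Figure D3:**
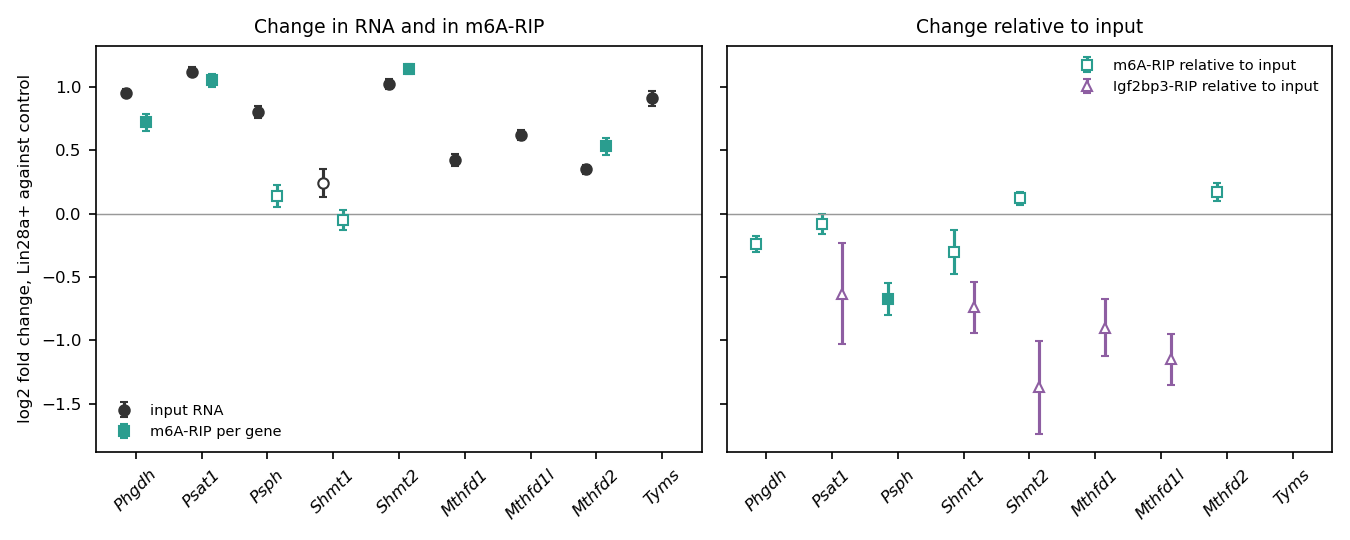
Log2 fold change of Lin28a+ against control MuSCs for the members, in input RNA and m6A-RIP per gene (left) and in m6A-RIP and Igf2bp3-RIP relative to input (right). Bars are the standard error (SE), taken as the log2 change over the square root of the F statistic of the edgeR test. They are not held at counting error. Filled symbols passed an adjusted p of 0.05. Psph is the only member whose value relative to input passed, at -0.67, and all 5 Igf2bp3-RIP values relative to input lie below 0 without passing.

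Igf2bp3-RIP peaks were listed for 5 members, 10 peaks in all: 4 in Psat1, 2 in Mthfd1l, 2 in Shmt1 and 1 each in Shmt2 and Mthfd1. Phgdh, Psph, Mthfd2 and Tyms had none. Of the 11310 gene symbols tested in the input, 32.9% had an Igf2bp3-RIP peak. None of the 10 peaks was called, against 0.123% of 19465 peaks in either direction, and 1 of the 10 had an unadjusted p under 0.05. Over all peaks edgeR called 24, with 1017 at an unadjusted p under 0.05, and DESeq2 called 263, none of them in a member. These fits hold no block for the replicate number. With that block, an alternative, edgeR called 1988 peaks, among them those of Psat1, but whether the numbers mark pairs is not known.

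The Psat1 peaks were the only ones of the members with higher estimates in Lin28a+ MuSCs. The peak nearest the 3′ end (chr19:15905294-15905559, centred 304 bases from the end of the RefSeq gene) held 105 and 114 CPM in the control libraries, against 147 and 222 CPM in those of Lin28a+ MuSCs. Those at chr19:15905995-15906299 and chr19:15907034-15907259 held 64.9 and 85.8 CPM against 80.0 and 176 CPM, and 49.9 and 57.5 CPM against 74.1 and 115 CPM. The fourth, at chr19:15917198-15917413, held 40.3 and 46.4 CPM against 48.0 and 84.1 CPM. Replicate 2 was the higher library of each group at all 4 peaks, and at 1 of them, the second, the groups overlapped. From the 3′ end inwards, the changes were 0.73 (SE 0.30), 0.73 (SE 0.42), 0.79 (SE 0.32) and 0.58 (SE 0.34) on the log2 scale, with adjusted p from 0.934 to 1 (edgeR). With the replicate number as a block, all 4 were called higher (adjusted p from 0.00154 to 0.043, edgeR). No label ties that number to a batch, animal or day, so the call depends on a pairing that is not known. The 4 peaks share their RNA, and the RNA of Psat1 rose by 1.12 on that scale.

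The other 6 peaks had estimates between -0.52 and -0.12. The Shmt2 peak (chr10:127517430-127517630) held 114 and 62.6 CPM in control against 98.9 and 66.3 CPM in Lin28a+ MuSCs, so replicate 1 was the higher in both groups and the groups overlapped. The Mthfd1 peak (chr12:76303485-76303762) held 17.9 and 22.0 CPM against 18.8 and 16.3 CPM. The Mthfd1l peaks held 19.0 and 16.1 CPM against 17.8 and 14.8 CPM at chr10:3980019-3980219, and 13.1 and 17.4 CPM against 7.77 and 13.9 CPM at chr10:4047633-4047832. The groups overlapped at each of these. The Shmt1 peaks, at chr11:60786610-60786821 and chr11:60787593-60787792, held 23.1 and 20 CPM against 18.3 and 16.8 CPM, and 16.8 and 14.7 CPM against 14.7 and 13.6 CPM. Both were lower in Lin28a+ MuSCs, with ranges that touch at the second, and neither passed the test (adjusted p = 1, edgeR). They lie 2076 and 1105 bases beyond the 3′ end of the RefSeq gene, although the table assigns them to Shmt1.

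**Figure D4:**
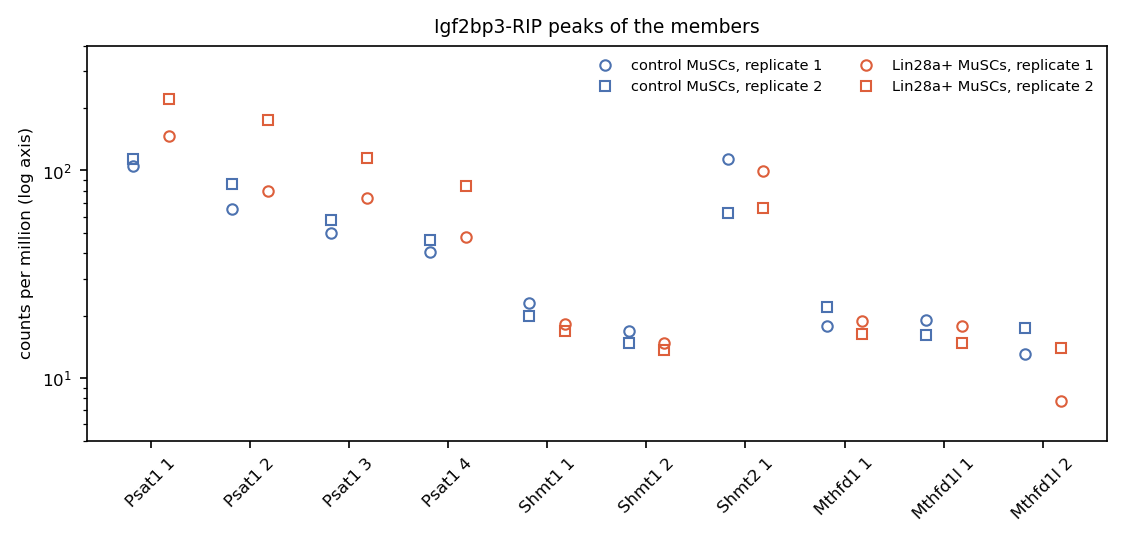
Igf2bp3-RIP level of each of the 10 member peaks in the 4 libraries, in CPM on a log axis, with circles for replicate 1 and squares for replicate 2. Peaks are numbered along the chromosome within a gene, which for Psat1 begins at its 3′ end. The 4 Psat1 peaks are the ones where both Lin28a+ values stand above their same-numbered control value, and replicate 2 is the higher at all of them.

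Relative to the input, with the peaks of a gene summed, all 5 members had estimates below 0 and none was called, against 0.968% of 3927 genes called in either direction. The values were -1.37 for Shmt2 (SE 0.37, adjusted p = 0.0935), -1.15 for Mthfd1l (SE 0.20, adjusted p = 0.0545), -0.90 for Mthfd1 (SE 0.23, adjusted p = 0.0851), -0.74 for Shmt1 (SE 0.20, adjusted p = 0.0964) and -0.63 for Psat1 (SE 0.40, adjusted p = 0.393). 4 of the 5 had an unadjusted p under 0.05, as did 956 of all genes, of which edgeR called 38. When libraries were scaled to total counts, the median of all genes moved from 0.027 to 0.26 and the calls moved from 13 higher and 25 lower to 205 and 34, and Mthfd1l then passed (-0.92, adjusted p = 0.0375). Leaving out an Igf2bp3-RIP library gave 1 or 2 member calls, all lower: Mthfd1 and Mthfd1l without control replicate 1, Shmt2 without control replicate 2, Mthfd1l without Lin28a+ replicate 1, and Mthfd1l and Psat1 without Lin28a+ replicate 2.

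The Lin28a-RIP has no control group and is described only. Its table holds 40 peaks in 5 members, 19 in Mthfd1, 15 in Mthfd1l, 3 in Phgdh, 2 in Shmt2 and 1 in Shmt1, while Psat1, Psph, Mthfd2 and Tyms have none. Of the gene symbols tested in the input, 25.4% had a Lin28a-RIP peak. The median gene in the table has 3 peaks, and 220 of its 3493 genes have 19 or more. Psat1, with 4 Igf2bp3-RIP peaks, thus has no Lin28a-RIP peak, and Phgdh has Lin28a-RIP peaks and no Igf2bp3-RIP peak.

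The 19 Mthfd1 peaks, of 201 to 727 bases, run from 24.4% to 92.5% of the way along the gene. Summed, they held 631 and 655 CPM in the 2 libraries, and their log2 ratio over the input of Lin28a+ MuSCs was 3.63, at rank 729 of 3016 genes in both tables, where the median was 1.82. The 15 Mthfd1l peaks run from 0.15% to 68.7% of the gene and held 258 and 266 CPM, with a log2 ratio of 1.72 at rank 1548. These 2 genes, one acting in the cytosol and the other in the mitochondrion on the same formate step, hold 34 of the members' 40 peaks. The ratio of Mthfd1l lay just below the median, and those of the other 3 members lay further below it. Shmt1 held 14.7 and 15.2 CPM (log2 ratio 0.65, rank 1973), Shmt2 94.6 and 96.1 CPM (-0.91, rank 2532) and Phgdh 104 and 119 CPM (-2.37, rank 2856). The ratio grows with the number and width of the peaks in a gene, so it orders genes only loosely, and whether the peaks lie in exons or introns was not analysed here.

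In each of the 4 members with peaks of both proteins, at least 1 pair of peaks overlapped. Of the 6 Igf2bp3-RIP peaks in these genes, 5 shared at least 1 base with a Lin28a-RIP peak, against 77.2% of 15205 Igf2bp3-RIP peaks over all 2738 genes with peaks of both. These were the Shmt2 peak (186 bases shared with chr10:127517445-127517644), the Mthfd1 peak (278 bases, its whole width, with chr12:76303442-76303903), both Mthfd1l peaks (200 bases with chr10:3980018-3980218 and 199 bases with chr10:4047634-4047921) and the Shmt1 peak nearer the gene (200 bases, its whole width, with chr11:60787512-60787973). The other 5 were the 4 Psat1 peaks, in a gene without a Lin28a-RIP peak, and the Shmt1 peak farther from the gene.

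**Figure D5:**
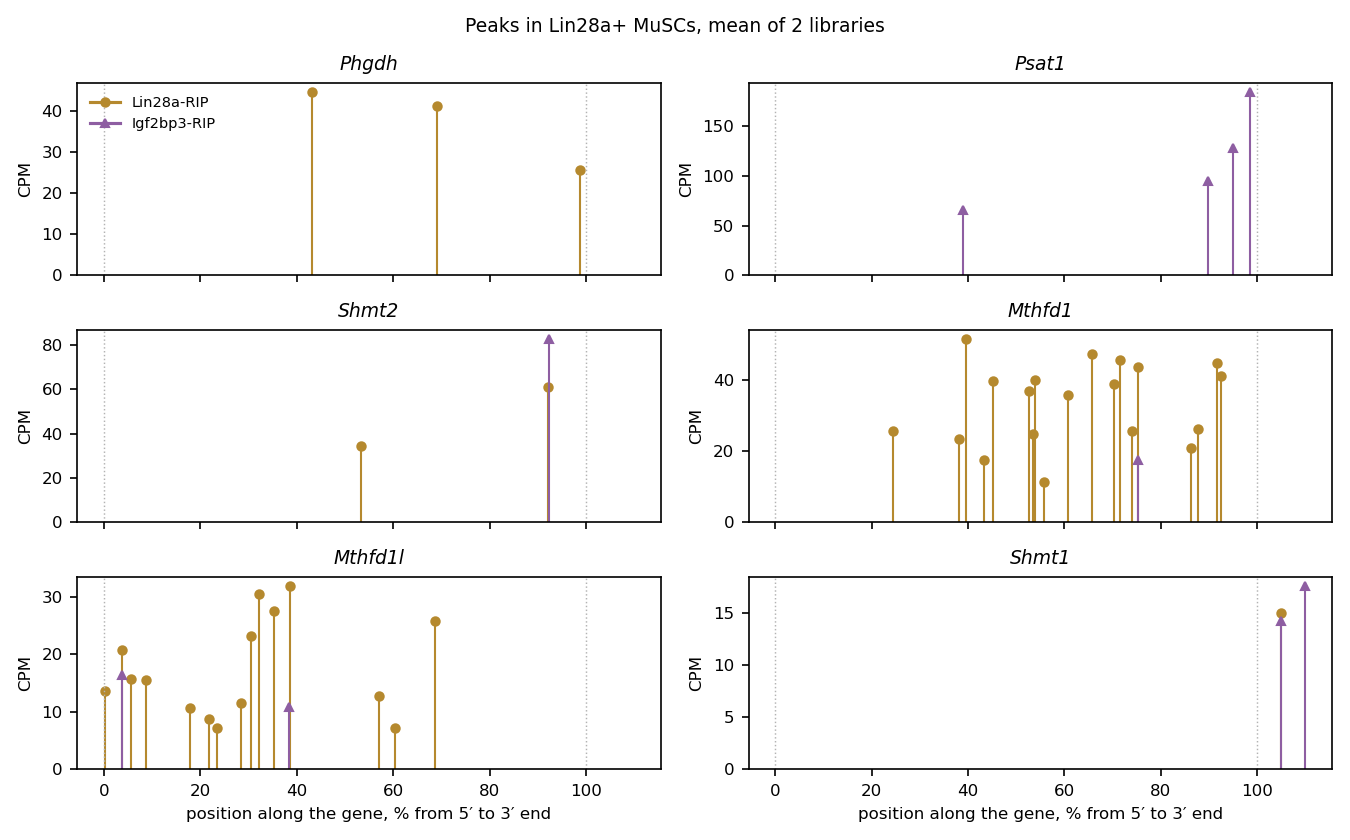
Lin28a-RIP peaks (circles) and Igf2bp3-RIP peaks (triangles) of 6 members in Lin28a+ MuSCs, by position along the RefSeq gene in percent from its 5′ to its 3′ end (dotted lines) and by height in CPM, as the mean of 2 libraries. Mthfd1 and Mthfd1l carry rows of Lin28a-RIP peaks, Psat1 carries only Igf2bp3-RIP peaks with 3 of 4 in the last part of the gene, and the peaks of Shmt1 lie beyond its 3′ end.

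For each member with both RNA and m6A-RIP values, the gene with the most similar pattern over the 4 input and 4 m6A-RIP libraries was sought among 7415 genes, by the root mean square difference of log2(CPM + 1) centred within each assay. They were Tmem201 for Phgdh (0.028), the tubulin Tubb5 for Psat1 (0.046), Limd2 for Psph (0.044), Frg1 for Shmt1 (0.026), the condensin subunit Ncapd2 for Shmt2 (0.029) and the actin-binding Tmsb4x for Mthfd2 (0.024). Limd2 changed by 0.78 in RNA (adjusted p = 8.98e-05, edgeR) and by 0.23 in m6A-RIP (adjusted p = 0.0448, edgeR), so its m6A-RIP passed the test where that of Psph did not. Tubb5 changed by 1.08 in RNA and 1.06 in m6A-RIP, near the values of Psat1. The nearest gene in a set of this size is close by construction, so these distances describe likeness only.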

How the data were processed

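Processed tables of 14 libraries were used. The authors deposited unscaled counts per row or peak of the RIP libraries. The input table is deposited as estimated counts of genes, which were rounded here before testing. Those of several members are whole multiples of a fraction such as 1/7 or 1/8 (within 0.01), and how they were made was not given in the sources used here. The submitters' processing notes name HISAT2 2.0.4, MACS2 1.4.3 and DESeq2 1.42.0. The paper names a human assembly, whereas the gene identifiers are mouse and the member peaks lie in or near their genes in GRCm38.p6. The counting program, peak threshold and pooling of replicates were not given in the sources used here.

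Columns were assigned by name. The Lin28a+ columns of the input and m6A-RIP tables, 4 in all, carry no usable replicate number and are called library a and b. Symbols matched 99.96% of input rows and 99.96% to 99.98% of RIP rows.

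Tests used R 4.3.3 and edgeR 4.0.16 (quasi-likelihood, TMM, filterByExpr, Benjamini-Hochberg adjusted p under 0.05 over the whole table), were tested on simulated data, and do not let a p fall below that of counting error. An SE here is the log2 change divided by the square root of the F statistic. It has no such limit, so it can be smaller than counting error alone would give. Changes relative to input are the interaction of cells and assay in 1 model, with TMM within each assay. CPM uses each table's own sums. Alternatives were DESeq2, other scaling, other filters on low counts and leaving out each library. The members and lists were chosen with earlier results of these data known. The genes named were all members, for each list up to 3 higher and 3 lower genes with the smallest RNA p among calls without overlap between groups, up to 3 each way from all lists for m6A-RIP relative to input, and the nearest gene to each member; 1 gene so named is not reported here. Atf4 was named after its value was seen, as the factor its list is named for. Lin28a itself was not analysed here. Promoter sequences are RefSeq's for GRCm38.p6.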

Additional observations from a re-analysis of the deposited data

How the results depend on the processing

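The calls of the members in RNA, 8 of 9 at 0.05, and in m6A-RIP per gene, 4 of 6, kept their number when any library was left out. Over all settings, 408 of 437 recomputed changes of single members stayed on the same side of 0 and of the threshold, 16 came to pass it, 7 ceased to pass it and 6 turned direction, in 5 features whose groups lay close together: Shmt1 in m6A-RIP per gene (-0.12 to 0.02 when a library was left out), Shmt2 in m6A-RIP relative to input (-0.01 with total counts), Psat1 in the same comparison (-0.16 to 0.01), the Shmt2 Igf2bp3-RIP peak (-0.47 to 0.38) and an Mthfd1l peak (-0.29 to 0.02). DESeq2 called 3039 genes in RNA and 263 Igf2bp3-RIP peaks. Total counts in place of TMM gave 1052 calls in m6A-RIP relative to input, 2 of them members, and 239 in Igf2bp3-RIP relative to input, 1 of them a member. At least 10 counts in every library left 0 Igf2bp3-RIP peaks (edgeR), with 973 at an unadjusted p under 0.05. Leaving out a library in turn gave 299 to 622 calls in m6A-RIP relative to input with 0 to 2 members, 108 to 193 Igf2bp3-RIP peaks with 0 members, and 0 to 574 calls in Igf2bp3-RIP relative to input with 0 to 2 members. Where 1 library of a group was left, it is assumed to vary like the other group. The cause of these moves was not tested. The 0 arose in each edgeR fit without an input library, with 489 to 522 genes at an unadjusted p under 0.05. With the replicate block, 1988 Igf2bp3-RIP peaks were called, among them all 4 Psat1 peaks (0.70, 0.65, 0.77 and 0.54 on the log2 scale, adjusted p from 0.00154 to 0.043, edgeR). Between the groups, the differences of replicate 1 from replicate 2 were correlated (r = 0.689 over 19432 peaks), while the labels tie the numbers to no batch, animal or day, so whether they mark pairs is not known and the block is given as an alternative only. No block could be made in the other comparisons, whose Lin28a+ columns carry no replicate number. Shmt1 had at most 50.11 estimated counts in an input library.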
